A study of Mus musculus with 6 samples.

Results

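The matrix metalloproteinases (Mmp), their tissue inhibitors (Timp) and the ADAMTS proteases (Adamts) were compared between the KP cell line and lungs carrying tumours grown from it. Members were chosen by symbol, as protein-coding genes named Mmp, Timp or Adamts followed by a number with an optional letter, and Adamtsl genes were left out. The rule gave 42 of 20687 gene symbols, of which 20 were Mmp, 4 Timp and 18 Adamts genes. Mmp1b, Mmp20 and Adamts18 also meet the naming rule and were not analysed here. The study holds 3 lung samples and 3 cell line samples of C57BL/6 mouse origin. Lungs of 3 mice were pooled into 1 sample in each of 3 experiments, and were taken 28 days after 100000 KP cells had been given by tail vein. The labels give neither the genotype of the line nor the age of the mice, and there was no lung free of injected cells. The cell line samples are labelled as triplicates, with nothing on whether the cultures were separate, so the spread behind each p-value may be technical in that group.

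Matrix metalloproteinases are zinc enzymes that cut collagens, elastin, proteoglycans and signalling proteins outside the cell or at its surface. Most are made as inactive precursors whose prodomain must be removed, and Timp proteins block the active site. ADAMTS proteases are secreted relatives with thrombospondin repeats that process procollagens, large proteoglycans, von Willebrand factor and fibrillin microfibrils. In lung these enzymes are known from alveolar elastin turnover, inflammation and tumour invasion.

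Several Mmp genes lie side by side on mouse chromosome 9, in the order Mmp13, Mmp12, Mmp1b, Mmp3, Mmp1a, Mmp10, Mmp8, Mmp27, Mmp20 and Mmp7 in the RefSeq annotation. RefSeq promoter windows (build GRCm38.p6, 250 bases before to 50 after an annotated start) were found for 28 of the 42 members. The AP-1 motif TGANTCA, the binding motif of Fos and Jun proteins, was in the windows of 5 of these genes, and all 5 (Mmp3, Mmp7, Mmp10, Mmp12 and Mmp13) belong to the chromosome 9 cluster. It reads the same on both strands. Of all 32851 promoter windows 7.81% hold it, counted by window, while the 28 members have 31 windows and were counted by gene. The stretches around the motif are shown because these neighbours, which carry matches to this motif at similar positions, are described one by one below. On the gene's strand the match is TGACTCA in Mmp13 and TGAGTCA in the others. They are written 5′ to 3′ on the gene's strand, with the AP-1 motif in capitals, and its first base lies 35 bases before the annotated start in Mmp13, 44 in Mmp12, 46 in Mmp3 and 63 in Mmp10 and Mmp7.
Mmp13, chr9:7272439-7272525, plus strand: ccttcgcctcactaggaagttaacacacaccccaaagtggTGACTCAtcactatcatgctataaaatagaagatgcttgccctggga
Mmp12, chr9:7347290-7347376, plus strand: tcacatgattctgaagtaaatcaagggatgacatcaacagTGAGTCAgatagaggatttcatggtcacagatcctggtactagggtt
Mmp3, chr9:7445736-7445822, plus strand: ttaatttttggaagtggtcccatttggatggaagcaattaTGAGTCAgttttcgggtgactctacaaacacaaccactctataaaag
Mmp10, chr9:7502239-7502325, plus strand: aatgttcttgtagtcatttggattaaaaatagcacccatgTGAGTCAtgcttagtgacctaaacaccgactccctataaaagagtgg
Mmp7, chr9:7691987-7692073, plus strand: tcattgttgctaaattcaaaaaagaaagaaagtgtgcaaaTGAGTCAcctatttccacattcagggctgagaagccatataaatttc
The windows of the cluster members Mmp8 and Mmp27 hold no match. The 6-letter Ets-type motif AGGAAG, searched on both strands, was in the windows of 13 of 28 members against 35.4% of all windows, and none of its matches overlapped an AP-1 match. A TATAAA box on the gene's strand was in 7 of 28 (Adamts1, Mmp3, Mmp7, Mmp10, Mmp12, Mmp13 and Mmp21) against 8.32% of all windows. A match is a description of the letters and not a binding site.

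Library totals ran from 17786758 to 22862396 estimated counts, at which 0 counts leave room for 3, or 0.120 to 0.173 CPM on the scale of the levels below, for counting error only. Markers of lung and of epithelial cells were read in both groups. Of 5 alveolar type 2 cell markers, Sftpa1 and Slc34a2 had 0 counts in the cell line, and the 5 summed to 13797, 20330.0 and 16603 CPM in lung, against 0.0933, 0 and 0.105 CPM in the cell line, in the order of replicates 1, 2 and 3 that is kept throughout. The 5 epithelial markers (Epcam, Krt8, Krt18, Cdh1, Krt7) summed to 2719, 3306 and 2080.3 CPM in the lungs and 2786, 6949.9 and 6991 CPM in the cell line, where replicate 1 was the lowest. Epcam alone was low in the cell line, at 1.91, 2.59 and 3.00 CPM, against 49.9, 46.7 and 59.2 CPM in lung. The 5 B cell markers summed to 133, 263 and 167 CPM in lung and to 67.9, 65.3 and 36.8 CPM in the cell line. Their origin in the cell line was not tested. Over all genes, cell line replicate 1 and lung replicate 2 stood apart from the other samples of their groups, so the main results below are given by sample. Levels are CPM, counts relative to library sizes scaled by the TMM method. Lung holds many cell types, and in such bulk samples fewer cells of a type and less RNA per cell cannot be told apart.

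Most members were higher in the lungs than in the KP line, and Mmp13 was the only member that passed the test in the other direction. Of the 42 members, 35 passed the filter on low counts and were tested, 23 were higher in lung, 1 was lower and 11 did not pass the threshold of an adjusted p below 0.05 (edgeR quasi-likelihood test). Over all 15212 genes tested, 31.3% were called higher and 17.5% lower, 48.8% in all. Of the 35, 9 reached the filter level of 0.474 CPM (on unscaled library sizes) in no cell line sample, so that they entered the test through lung alone and had to differ. They were Adamts3, Adamts8, Adamts15, Adamts17, Mmp8, Mmp12, Mmp17, Mmp25 and Timp4. Among the 21 members at that level in all 3 cell line samples, 10 were higher in lung, 1 was lower and 10 did not pass, where all such genes gave 18.4% higher and 21.7% lower. By family, 10 of 16 tested Mmp genes, 2 of 4 Timp genes and 11 of 15 Adamts genes were higher in lung. Of these, 4 Mmp genes, 1 Timp gene and 4 Adamts genes entered the test through lung alone. The groups did not overlap in 23 members that were higher in lung and 5 that were lower, against 35.6% and 26.5% of all genes. The median log2 fold change (lung minus cell line) of the 35 was 2.94, beside 0.08 over all genes tested. That median and the 23 higher members without overlap include the 9 that entered through lung alone. Scaling by library size alone moved the median of all genes to 0.30 and the share of calls that were higher from 64.1% to 75.1%, while the same 23 members were called higher and Mmp13 lower.

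**Figure D1:**
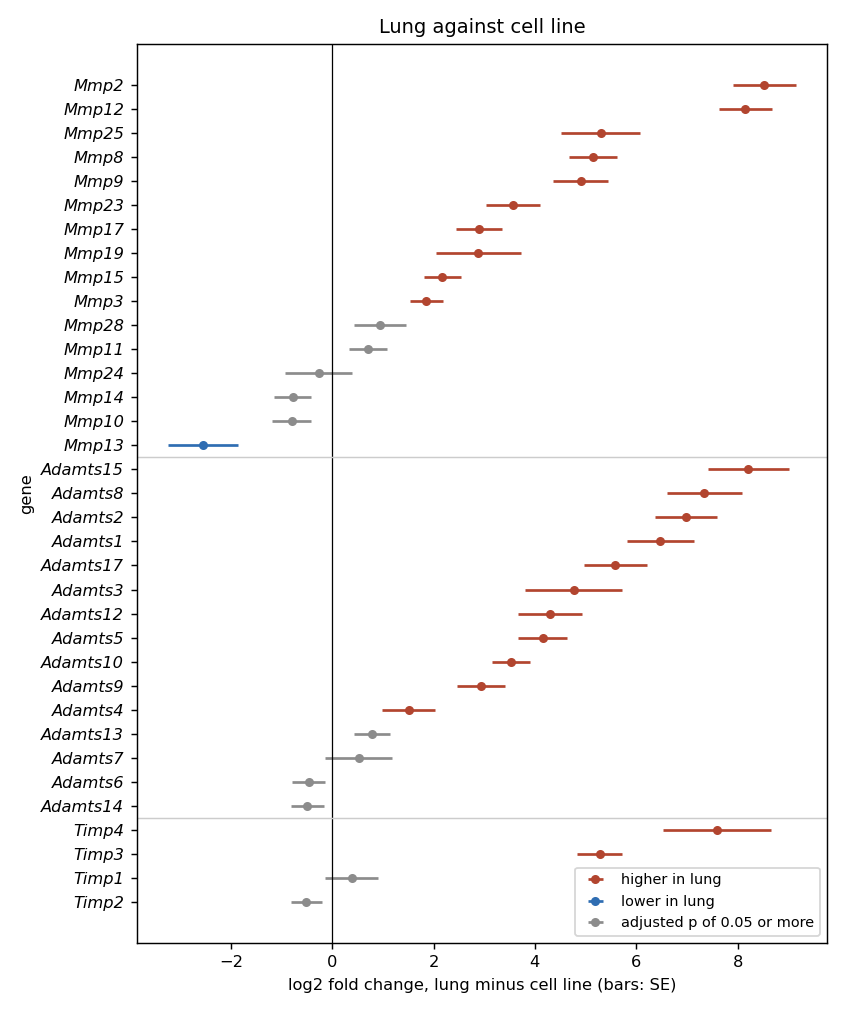
Log2 fold change of the 35 tested members, lung minus cell line, with SE as bars, grouped by family and ordered by size. Mmp2, Adamts15 and Mmp12 lie farthest to the right among genes with counts in both groups, and Mmp13 is the only member called lower in lung.

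**Figure D2:**
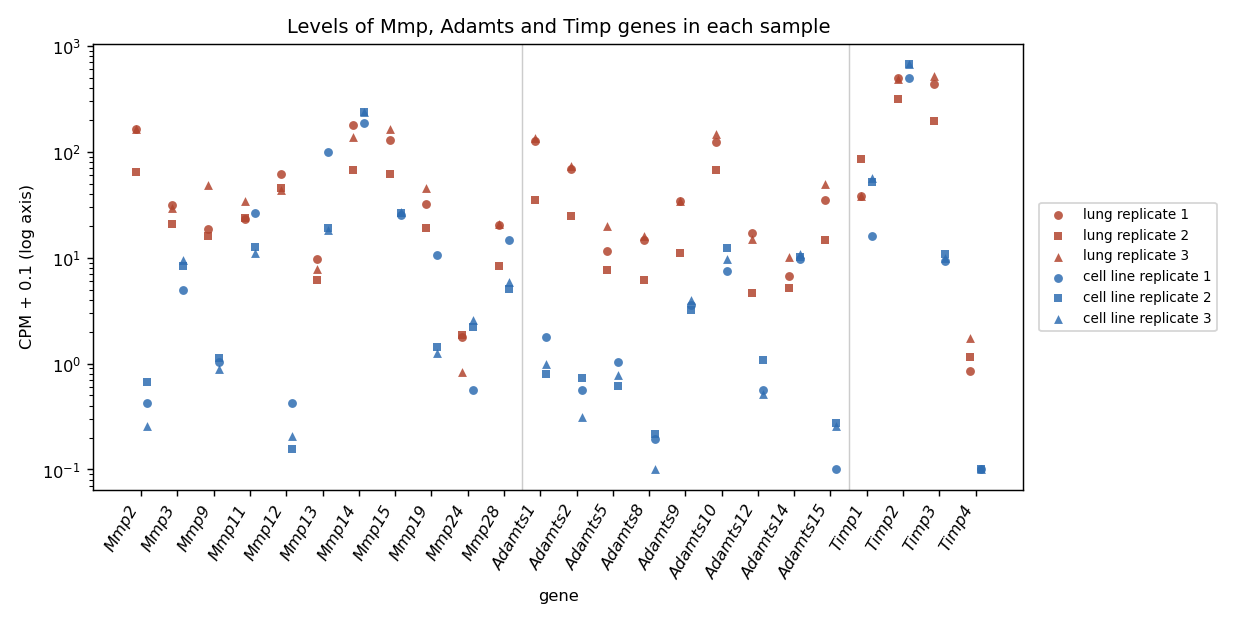
CPM + 0.1 on a log axis for 24 members, which are those at 10 CPM or more on average in a group, all Timp genes and Mmp24, with 1 symbol per sample (lung red, cell line blue). Mmp13 is the gene in which all cell line samples lie above all lung samples by the widest margin, and Mmp2, Mmp12 and Adamts15 lie near the bottom of the axis in the cell line.

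The collagenases, which cut fibrillar collagen, went opposite ways. Mmp13, collagenase 3, stood at 100.2, 19.0 and 18.3 CPM in cell line replicates 1, 2 and 3 and at 9.70, 6.01 and 7.73 CPM in lung. Replicate 1 of the cell line was far above the other preparations, and all lung samples were below all cell line samples. The difference passed the test (a log2 fold change of -2.55 with SE 0.68, adjusted p = 0.0154 by edgeR). It was -1.26 on the log2 scale without cell line replicate 1, and the call was lost without lung replicate 2 (edgeR adjusted p = 0.0593). Mmp8, the neutrophil collagenase, had 6.51, 4.60 and 7.89 CPM in the lungs and 0.140, 0.173 and 0.211 CPM in the cell line, 10 counts in all there, and was higher in lung (a log2 fold change of 5.14 with SE 0.47, adjusted p = 7.68e-05 by edgeR). As it entered the test through lung alone, Mmp8 had to differ.

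Of the neighbours of Mmp13 on chromosome 9, the macrophage elastase Mmp12 and the stromelysin Mmp3 were higher in lung. Mmp12, macrophage elastase, stood at 62.0, 45.0 and 43.3 CPM in lung, against 0.326, 0.0576 and 0.105 CPM in the cell line, which there amounts to 10 counts over 3 samples. All lung samples were far above the cell line (a log2 fold change of 8.15 with SE 0.52, adjusted p = 2.88e-05 by edgeR), and the log2 fold change was 9.13 without cell line replicate 1, which held most of those counts. Mmp3, stromelysin 1, stood at 31.3, 20.6 and 29.5 CPM in the lungs and 4.90, 8.23 and 9.37 CPM in the cell line. It was higher in every lung sample (a log2 fold change of 1.86 with SE 0.33, adjusted p = 0.00211 by edgeR), and cell line replicate 1 was the lowest sample. Mmp10, stromelysin 2, stood at 1.88, 1.94 and 1.14 CPM in the lungs and 2.98, 2.71 and 3.00 CPM in the cell line, all cell line samples above all lung samples, without passing the test (a log2 fold change of -0.80 with SE 0.39, adjusted p = 0.123 by edgeR). Mmp7, matrilysin, had 2 counts in each group, and Mmp27 had 0.439, 0.309 and 0.467 CPM in lung and 0 counts in the cell line. The lung level of Mmp27 was at least 7.77-fold higher against a floor of 3 counts over the cell line samples, and neither gene reached the filter. Of the 5 genes whose promoter windows hold AP-1 letters, 1 was lower in lung, 2 were higher, 1 did not pass the test and 1 was near 0 in both groups. Of all genes tested, 31.3% were higher and 17.5% lower, so these few calls are not read as a trait of genes with the motif. Mmp12, among the higher ones, entered the test through lung alone and had to differ.

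Macrophage and neutrophil markers were also higher in lung. The 6 macrophage markers summed to 766, 947 and 772 CPM in lung, against 69.2, 194 and 196 CPM in the cell line, and 5 of the 6 were higher in lung, Mrc1 being the exception with 31.3, 163 and 172 CPM in the cell line. The 5 alveolar macrophage markers summed to 701, 799.8 and 918 CPM in the lungs and 3.87, 2.24 and 2.11 CPM in the cell line, and all 5 were higher in lung. The 5 neutrophil markers summed to 168, 321 and 205 CPM in the lungs and 4.57, 3.97 and 2.47 CPM in the cell line, with all 5 higher in lung and none at 0 counts in either group. Ear2, Fabp4, Siglecf and Retnlg among these markers reached the filter level in no cell line sample. They entered the test through lung alone and had to differ. Of all genes tested, 31.3% were higher in lung. Within lung, replicate 2 had the highest macrophage and neutrophil sums and the lowest values of Mmp8, Mmp9 and Mmp25. Those sums were highest there through C1qa, C1qb, S100a8, S100a9 and Retnlg. The markers Adgre1 (51.6, 38.0 and 67.8 CPM), Csf1r (177, 123 and 203 CPM), Mrc1, Csf3r (49.3, 36.8 and 91.8 CPM) and Cxcr2 were lowest in replicate 2, and Cd68 lay between. The part of these cells in the levels of Mmp8, Mmp9, Mmp12 and Mmp25 was not tested.

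Of the gelatinases, which degrade denatured collagen and basement membrane collagen, both were higher in lung. Mmp2, gelatinase A, stood at 164, 64.1 and 164 CPM in lung, against 0.326, 0.576 and 0.158 CPM in the cell line, or 20 counts over the 3 preparations. No cell line sample reached 1 CPM, while lung replicates 1 and 3 were alike and replicate 2 was the lowest (a log2 fold change of 8.53 with SE 0.63, adjusted p = 3.73e-05 by edgeR). Mmp9, gelatinase B, stood at 18.4, 15.9 and 48.6 CPM in the lungs and 0.933, 1.04 and 0.790 CPM in the cell line. Lung replicate 3 was the highest sample, and the log2 fold change of 4.90 (SE 0.53, edgeR adjusted p = 0.000180) was 4.21 without it.

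The membrane-type enzymes sit on the cell surface, and Mmp14 (MT1-MMP) is known to activate pro-Mmp2 in a complex with Timp2. Mmp14 stood at 181, 66.8 and 137 CPM in the lungs and 186, 237 and 238 CPM in the cell line. Every cell line sample was above every lung sample, with the margin set by lung replicate 1, and the difference did not pass the test (a log2 fold change of -0.78 with SE 0.37, adjusted p = 0.116 by edgeR). Mmp15, another transmembrane enzyme, stood at 129.9, 61.3 and 163 CPM in lung and was nearly the same in all cell line samples at 25.3, 26.5 and 26.8 CPM, and it was higher in lung (a log2 fold change of 2.17 with SE 0.37, adjusted p = 0.00169 by edgeR). The membrane-anchored Mmp17 and Mmp25 were also higher in lung, and both entered the test through lung alone. Mmp17 stood at 3.24 ± 0.811 against 0.429 ± 0.0721 CPM (mean ± SD, n = 3 per group, log2 fold change 2.90). Mmp25, known as leukolysin for its expression in leukocytes, stood at 4.19, 2.56 and 6.18 CPM in lung and had 6 counts in the cell line (log2 fold change 5.29, and 4.69 without cell line replicate 3). Mmp24 had 1.68, 1.77 and 0.727 CPM in lung, against 0.466, 2.13 and 2.47 CPM in the cell line. Those groups overlapped (a log2 fold change of -0.27 with SE 0.66, adjusted p = 0.758 by edgeR), and cell line replicate 1 was the lowest of the 6 samples. Mmp16 was at or below 1.25 CPM in all samples and was not tested.

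Among the remaining Mmp genes, Mmp19 and Mmp23 were higher in lung. Mmp19 stood at 32.3, 18.8 and 45.5 CPM in the lungs and 10.5, 1.324 and 1.16 CPM in the cell line, where replicate 1 was far above the other preparations. All lung samples were above it (a log2 fold change of 2.88 with SE 0.84, adjusted p = 0.0220 by edgeR). The log2 fold change of Mmp19 was 4.68 without cell line replicate 1, and the call was lost without replicate 3 (edgeR adjusted p = 0.0507). Mmp23 stood at 9.22 ± 2.58 CPM in lung and 0.765 ± 0.519 CPM in cultured cells (log2 fold change 3.56, and 4.26 without cell line replicate 1). Mmp11, stromelysin 3, had 23.3, 23.8 and 34.3 CPM in the lungs and 26.3, 12.4 and 11.0 CPM in the cell line. Cell line replicate 1 lay within the lung range, so that the groups overlapped (a log2 fold change of 0.71 with SE 0.38, adjusted p = 0.157 by edgeR), and without that replicate the difference was 1.20 with edgeR adjusted p = 0.0129. The gene shares 155 exonic bases with Chchd10 on the opposite strand, which stood at 16.9, 2.19 and 1.90 CPM in the preparations, and reads of the pair cannot be told apart if strand was not used. Mmp28, epilysin, also overlapped, with 20.0, 8.26 and 20.9 CPM in lung, 14.7, 5.01 and 5.74 CPM in cultured cells and no call (a log2 fold change of 0.95 with SE 0.52, adjusted p = 0.163 by edgeR), and the log2 fold change came to 1.60 with cell line replicate 1 left out (adjusted p = 0.0309 by edgeR). Without replicate 1 the cell line spread is that of replicates 2 and 3, which were much alike. The p-values of that fit are not comparable with those from all samples. Mmp21 had 1 count in each group.

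The Timp genes divided into 2 that were higher in lung and 2 that did not pass the test. Timp4, which was higher, entered the test through lung alone. Timp3, the inhibitor that binds to the extracellular matrix, stood at 436, 194 and 523 CPM in lung, against 9.14, 10.6 and 9.90 CPM in the cell line. The preparations of the line were close to each other, and the lowest lung sample was far above them (a log2 fold change of 5.28 with SE 0.44, adjusted p = 5.86e-05 by edgeR). Timp4 had 0.759, 1.06 and 1.66 CPM in lung and no counts in cultured cells, a lung level at least 21.6-fold higher against 3 counts over the group (adjusted p = 0.00171 by edgeR). Timp2, which inhibits Mmp2 and also takes part in its activation, stood at 496, 312 and 483 CPM in the lungs and 498, 669.9 and 671 CPM in the cell line. Cell line replicate 1 and lung replicate 1 were nearly equal, and the difference did not pass the test (a log2 fold change of -0.51 with SE 0.30, adjusted p = 0.194 by edgeR). Timp1, a secreted inhibitor induced in inflammation, stood at 38.0, 84.8 and 38.2 CPM in the lungs and 15.9, 51.7 and 56.1 CPM in the cell line. Lung replicate 2 was the highest sample and cell line replicate 1 the lowest, and the groups overlapped (a log2 fold change of 0.38 with SE 0.52, adjusted p = 0.569 by edgeR). The sign of the Timp1 difference rests on those samples, being -0.18 when lung replicate 2 was left out and -0.02 when cell line replicate 1 was.

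Leaving out cell line replicate 1 and lung replicate 2 together gave 4 members lower in lung, which were Mmp13 (-1.09), Mmp14 (-0.58), Timp1 (-0.50) and Timp2 (-0.46 on the log2 scale), and 27 higher. Both samples were left out for standing apart, so the spread in that fit is that of the pairs most alike. Its p-values are not comparable with those from all samples.

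Levels of different genes were compared per transcript length, as TPM (counts per base of transcript, scaled to the same total in every sample) computed from the estimated counts and annotated lengths. In the cell line the highest members were Timp2 at 282, 384 and 374 TPM, Mmp14 at 129, 165 and 165 TPM and Timp1 at 33.0, 107 and 115 TPM. Timp2 was above Mmp14 and Mmp14 above Timp1 in every preparation, and the following members, Mmp13 at 67.3, 12.6 and 12.1 TPM and Mmp11 at 21.6, 9.94 and 9.38 TPM, had ranges that overlapped, as did those of Timp1 and Mmp13. In lung the order by mean was Timp2 (272, 168 and 273 TPM), Timp3 (188, 59.2 and 233 TPM), Timp1, Mmp14, Mmp2 (119, 36.3 and 124 TPM), Adamts10, Mmp12, Mmp15 and Adamts1, and each of these overlapped its neighbour in the order. With the longest transcript of each gene as its length, the lung mean of Mmp12 was 25.7 in place of 54.96 TPM. All annotated transcripts of a gene enter these levels, and most Adamts10 counts in lung were on forms not annotated as protein-coding.

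**Figure D3:**
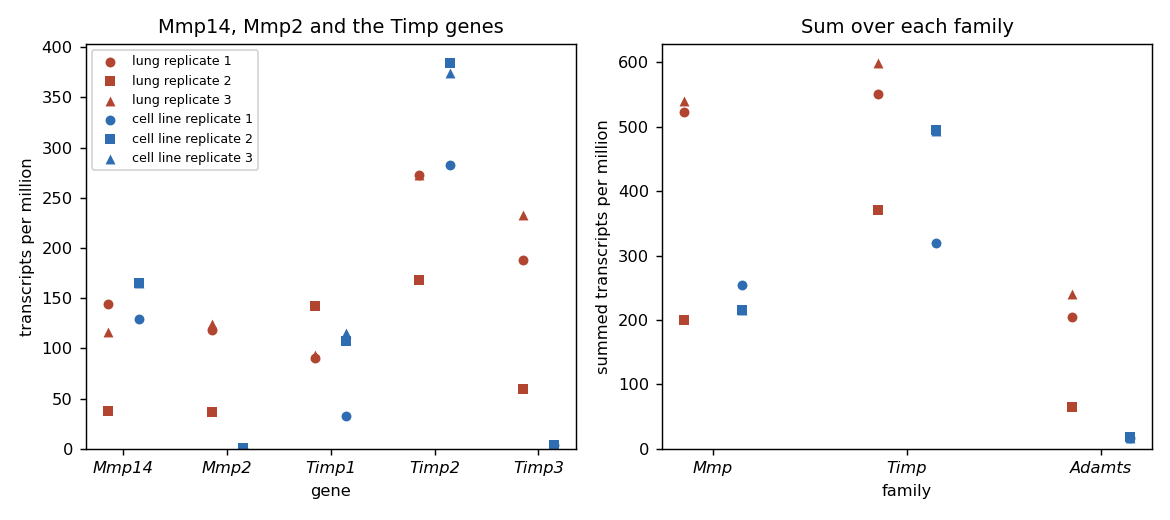
TPM by sample for Mmp14, Mmp2, Timp1, Timp2 and Timp3 (left) and summed over each family (right), lung in red and cell line in blue. Mmp14 and Timp2 are present in both groups, Mmp2 and Timp3 lie near 0 in the cell line, and the Adamts sum is below 18 TPM in all cell line samples.

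The composition of the family differed between the groups. Mmp14 made up 50.9, 76.5 and 76.9% of the summed Mmp TPM in the cell line and 27.5, 18.6 and 21.5% in lung. Mmp2 made up 22.7, 18.1 and 23.0% in lung and at most 0.154% in any cell line sample, so that the cell line held the RNA of the activator Mmp14 and of Timp2 with little of Mmp2. Mmp13 made up 26.5, 5.86 and 5.62% in the cell line, most of it in replicate 1. Timp2 was 88.5, 77.6 and 75.9% of the summed Timp TPM in the cell line and 49.4, 45.4 and 45.6% in lung, where Timp3 gave 34.1, 16.0 and 38.8%. Summed over families, Timp TPM exceeded Mmp TPM in all 6 samples, with a ratio of 1.05, 1.85 and 1.11 in lung and 1.25, 2.30 and 2.30 in the cell line. Cell line replicate 1 lay between the lung samples in that ratio, and replicates 2 and 3 were above them. Summed Adamts TPM was 205, 64.7 and 240.5 in lung and 17.2, 17.6 and 16.6 in the cell line. These sums are descriptions, and RNA levels give no measure of enzyme activity.

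Adamts proteases that cleave large proteoglycans such as aggrecan and versican were higher in lung in all 6 that were tested, which are Adamts1, Adamts4, Adamts5, Adamts8, Adamts9 and Adamts15, where 31.3% of all genes were higher. Adamts8 and Adamts15 entered the test through lung alone. Adamts1 stood at 125, 34.6 and 136 CPM in lung and 1.68, 0.691 and 0.895 CPM in cultured cells (a log2 fold change of 6.48 with SE 0.67, adjusted p = 0.000138 by edgeR). Adamts15 stood at 34.7, 14.7 and 49.5 CPM in lung and had 6 counts over the cell line samples (a log2 fold change of 8.21 with SE 0.80, adjusted p = 0.000106 by edgeR, and 7.58 on the log2 scale without cell line replicate 1). In all of these genes but Adamts4 the lung samples were above the cell line samples. Adamts9 stood at 34.5, 10.9 and 34.4 CPM in lung and 3.45, 3.11 and 3.84 CPM in cultured cells (a log2 fold change of 2.94 with SE 0.47, adjusted p = 0.00118 by edgeR). Adamts8 had 14.5, 6.05 and 16.0 CPM in lung and 4 counts in the cell line (log2 fold change 7.34, and 6.75 without cell line replicate 3). Adamts5, a main aggrecanase of cartilage, had 11.5, 7.60 and 19.6 CPM in lung and 0.933, 0.518 and 0.684 CPM in cultured cells (log2 fold change 4.16). Adamts4, the other main aggrecanase, stood at 14.1, 3.36 and 11.4 CPM in lung, against 3.40, 2.65 and 4.05 CPM in the cell line. Lung replicate 2 lay within the cell line range, and the call (a log2 fold change of 1.51 with SE 0.52, adjusted p = 0.0422 by edgeR) was lost with limma-voom and on leaving out any sample other than lung replicate 2. Adamts20 had 0.359, 0.530 and 1.51 CPM in lung and no counts in cultured cells, a lung level at least 14.4-fold higher, and was not tested.

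The procollagen N-proteinases, which trim fibrillar procollagens, did not move together. Adamts2 stood at 68.4, 24.8 and 73.1 CPM in the lungs and 0.466, 0.633 and 0.211 CPM in the cell line, with no cell line sample above 1 CPM (a log2 fold change of 6.98 with SE 0.61, adjusted p = 6.75e-05 by edgeR). Adamts14 stood at 6.59, 5.13 and 10.02 CPM in the lungs and 9.70, 10.02 and 10.8 CPM in the cell line. Lung replicate 3 reached the cell line range, and the difference did not pass the test (a log2 fold change of -0.49 with SE 0.32, adjusted p = 0.237 by edgeR). Adamts3, known for processing the lymphatic growth factor Vegfc, had 0.759, 0.486 and 2.08 CPM in lung and 2 counts in the cell line, a pooled ratio of 30.2 (95% exact interval 8.06 to 255, counting error only), and passed the test (edgeR adjusted p = 0.00406), with a fitted log2 fold change of 4.76 that was 3.96 without lung replicate 3. Adamts3 entered the test through lung alone.

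Of the other Adamts genes, Adamts10, Adamts12 and Adamts17 were higher in lung, of which Adamts17 entered the test through lung alone. Adamts10, a protease of fibrillin microfibrils, was the Adamts gene with the most counts in lung, at 122, 67.0 and 147 CPM in lung and 7.32, 12.3 and 9.63 CPM in cultured cells (a log2 fold change of 3.53 with SE 0.38, adjusted p = 0.000175 by edgeR). Every lung sample was above the cell line, and cell line replicate 1 was the lowest. By protein-coding transcripts alone Adamts10 had 1988 counts in lung, fewer than Adamts1 (6520), Adamts2 (3631) and Adamts15 (2119). Adamts12, which can cleave cartilage oligomeric matrix protein, had 17.0, 4.55 and 15 CPM in lung and 0.466, 0.978 and 0.421 CPM in cultured cells (log2 fold change 4.29), and Adamts17 had 4.48 ± 1.78 CPM in lung and 5 counts in the cell line (log2 fold change 5.59). Adamts6, a relative of Adamts10, stood at 7.98, 4.91 and 7.99 CPM in lung, against 12.0, 8.35 and 8.48 CPM in the cell line. It was above lung in all cell line samples, without passing the test (a log2 fold change of -0.47 with SE 0.32, adjusted p = 0.263 by edgeR). Adamts7 (log2 fold change 0.53, edgeR adjusted p = 0.538) and Adamts13, the von Willebrand factor protease (log2 fold change 0.78, edgeR adjusted p = 0.106), did not pass either. Adamts13 stood at 3.59, 2.87 and 2.80 CPM in the lungs and 1.77, 1.67 and 1.95 CPM in the cell line. Adamts16 had 1 count in lung and 2 in the cell line, and Adamts19 had 50 counts in lung and 0 in the cell line.

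Stromal cell markers were higher in lung as well. The 7 fibroblast markers summed to 2559, 859 and 2805 CPM in the lungs and 24.2, 21.8 and 14.6 CPM in the cell line, all 7 were higher in lung and Lum had 0 counts in the cell line. The 6 smooth muscle and pericyte markers summed to 454, 441 and 436 against 13.1, 15.8 and 15.4 CPM and the 6 endothelial markers to 1429, 849.7 and 1689.7 against 11.1, 10.1 and 6.58 CPM, with all members of both lists higher in lung and none at 0 in either group. Lung replicate 2 was the lowest lung sample for the fibroblast and endothelial sums, though not for every marker, as the endothelial genes Cldn5 (173, 259 and 194 CPM) and Emcn (62.6, 77.6 and 52.2 CPM) were highest there. Lum, Cspg4 and Emcn reached the filter level in no cell line sample, entered the test through lung alone and had to differ. Of all genes tested, 31.3% were higher in lung. The part of stromal cells in the levels of the members was not tested.

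The deposited counts are per transcript, and the share of each transcript was read for members at 10 CPM or more. Mmp14-201 held 98.6% of the Mmp14 counts in lung and 98.6% in the cell line, and Timp3-201 99.9% and 99.6%. Adamts9 differed between the groups. Its transcript Adamts9-205 (6033 bases) held 63.4, 77.4 and 66.5% of the counts in lung and none in the cell line, where Adamts9-201 (8016 bases) held 90.1, 84.0 and 95.6% of 201 counts in all, against 32.2, 14.5 and 28.4% in lung. Mmp12 counts in lung were assigned to the transcript Mmp12-204, annotated as subject to nonsense-mediated decay (51.3, 65.7 and 45.2%), and to the protein-coding Mmp12-203 (33.1, 25.5 and 38.3%). Adamts10 counts were spread over 12 of its 13 transcripts, and the annotated retained-intron forms Adamts10-208 and Adamts10-212 together with the nonsense-mediated decay form Adamts10-207 held a large part in lung (23.3%, 20.5% and 22.8%), against 11.1%, 3.25% and 19.8% in the cell line. With protein-coding transcripts alone the log2 fold change was 2.68 for Adamts10 and 7.16 for Mmp12, with both still higher in lung. Mmp25 and Adamts17 had 0 protein-coding counts in the cell line, so that their lung levels by those transcripts were at least 72.8-fold and 83.6-fold higher, against 3 counts over the group. These shares are estimates by the quantification tool and were not tested.

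Cell line replicate 1 differed from replicates 2 and 3 in a part of the family, mainly Mmp genes. Of the 22 tested members with at least 1 CPM in a cell line sample, 5 were 2-fold or more higher in replicate 1 than the mean of replicates 2 and 3 and 2 were 2-fold or more lower, where 7.3% and 8.03% of all such genes did so. The higher ones were Mmp19 (log2 ratio 2.66), Mmp13 (2.40), Mmp28 (1.37), Adamts7 (1.26) and Mmp11 (1.13), computed with 0.5 CPM added. Of the 12526 genes measured, 0.447% had a ratio as high as that of Mmp19, and 0.695% one as high as that of Mmp13. The lower ones were Timp1 (-1.73) and Mmp24 (-1.54). Mmp14 (-0.36), Timp2 (-0.43), Mmp15 (-0.08) and Timp3 (-0.16) differed less. Replicates 2 and 3 differed by 2-fold or more in none of the 22 members, against 0.982% of all genes. As 1 preparation was set against 2, none of this was tested. Replicate 1 also had lower summed epithelial markers and the lowest values of Plau (6.02, 23.9 and 25.1 CPM) and Plat (35.0, 87.0 and 91.0 CPM), genes of the plasminogen activation system that feeds Mmp activation.

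**Figure D4:**
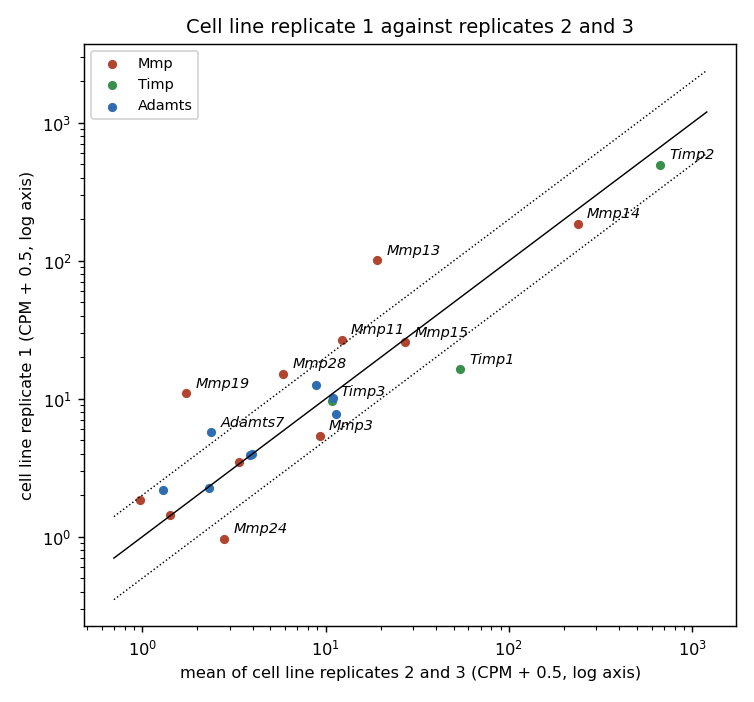
Cell line replicate 1 against the mean of replicates 2 and 3, as CPM + 0.5 on log axes, for members with at least 1 CPM in a cell line sample. The solid line marks equal values and the dotted lines 2-fold differences, and Mmp19, Mmp13, Mmp28, Adamts7 and Mmp11 lie above the upper line while Timp1 and Mmp24 lie below the lower one.

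Lung replicate 2 was lower than lung replicates 1 and 3 in most members. Of the 35 tested members, 31 were below the mean of replicates 1 and 3, 17 of them by 2-fold or more, and 1 (Timp1) was 2-fold or more higher, where 16.1% and 7.99% of all genes were that far lower or higher. The share of all genes simply below that mean is not given, so the 31 are not read as a trait of the members. By family, 10 of 15 Adamts genes, 6 of 16 Mmp genes and 1 of 4 Timp genes were 2-fold or more lower. Across all genes the median log2 ratio of replicate 2 to the others was 0.71 in the shortest length quartile, 0.02 in the second, -0.48 in the third and -0.98 in the longest. Of the 35 members, 9 fell in the third quartile, with a median of -1.03, and 17 in the longest, with a median of -1.25. The median count-weighted transcript length was 5188 bases for the tested Adamts genes, 2821 for the Mmp genes and 2743 for all genes tested. Timp1, the shortest at 859 bases, had a log2 ratio of 1.14, and Adamts1, with 4870.3 bases, one of -1.90. Across the 35 members Spearman's rho between length and ratio was -0.53, a description over genes that share the same 3 libraries. The fibroblast sum was also lowest in this sample, through Col1a1, Col1a2, Col3a1 and Pdgfra, while Dcn (96.8, 107 and 164 CPM), Lum (7.94, 9.33 and 13.3 CPM) and Tcf21 (48.2, 63.9 and 35.7 CPM) were not lowest there. How far transcript length or cell content accounts for the low values was not tested.

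**Figure D5:**
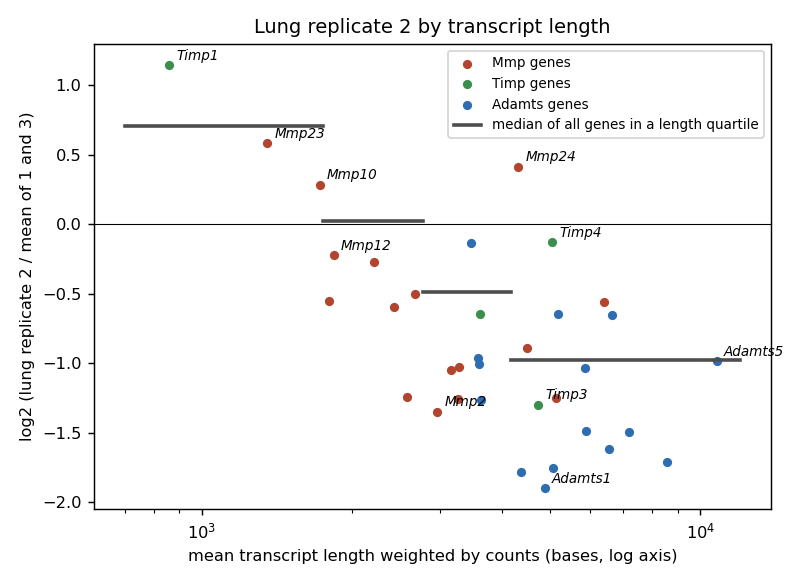
Log2 ratio of lung replicate 2 to the mean of lung replicates 1 and 3 for the 35 tested members, against the count-weighted transcript length on a log axis. Grey lines give the median of all genes in each quartile of length, drawn over the plotted range, and most Adamts genes lie below -0.5 at the long end while Timp1 lies above 1 at the short end.

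The genes around these proteases were read from lists chosen for their roles. Of 10 tested protease inhibitors and clearance genes, 9 were higher in lung and none lower by the edgeR test, beside 31.3% and 17.5% of all genes. Pzp, Tfpi2, Serpina1a and Spock2 reached the filter level in no cell line sample. They entered the test through lung alone and had to differ, and they count in the list median below. Serping1, the C1 inhibitor, stood at 378 ± 74.0 against 1.91 ± 0.411 CPM (log2 fold change 7.62), and Lrp1, the receptor that clears protease and inhibitor complexes, at 256 ± 108 against 63.1 ± 23.6 CPM (log2 fold change 2.02). Reck, a membrane-anchored Mmp inhibitor named here for its role, stood at 40.5, 14.0 and 48.1 CPM in lung and 0.373, 0.691 and 0.421 CPM in cultured cells (log2 fold change 6.11). The list's median log2 fold change was 5.23, beside 0.08 over all genes.

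Of 9 tested genes of Mmp activation, 3 were higher and 2 lower in lung, shares near the 31.3% and 17.5% of all genes. The 3 higher genes, Pcsk5, Klk1 and Hpn, reached the filter level in no cell line sample. They entered the test through lung alone and had to differ, and no other tested gene of the list was higher. Plaur, the urokinase receptor, stood at 64.6, 84.9 and 58.9 CPM in lung and 152, 189 and 194 CPM in cultured cells (log2 fold change -1.36), and Pcsk6, a proprotein convertase, at 14.7, 6.67 and 14.9 against 70.6, 53.8 and 52.6 CPM (log2 fold change -2.28). Both were lower in all lung samples. The related convertase Pcsk5 was higher in lung, at 24.1, 7.42 and 26.1 against 0.280, 0.345 and 0.263 CPM (log2 fold change 5.99), as were Klk1 and Hpn. Furin, the convertase of membrane-type Mmp precursors, stood at 130.4, 79.6 and 145 against 137, 276 and 295 CPM and did not pass (edgeR adjusted p = 0.0560). The list's median log2 fold change was 0.28.

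Of 9 genes known to induce Mmp expression, 3 were higher in lung (Il1b, Tnf and Osm) and 2 lower, which is also near the shares of all genes (31.3% and 17.5%). Osm entered the test through lung alone. Spp1, osteopontin, stood at 1172 ± 165 CPM in lung and 2649 ± 526 CPM in cultured cells (log2 fold change -1.18), and Hbegf at 51.1, 46.0 and 47.4 against 64.3, 247 and 247 CPM (log2 fold change -1.95). Bsg, the Mmp inducer also called EMMPRIN, was at 474 ± 125 and 480.3 ± 52.0 CPM (log2 fold change -0.02, edgeR adjusted p = 0.962). Of 10 tested substrates of Adamts proteases, 7 were higher in lung and Acan, which encodes aggrecan, was lower, beside 31.3% and 17.5% of all genes. Bcan, among the 7, entered the test through lung alone. Of those 7, the collagen genes Col1a1, Col1a2 and Col3a1 are also in the fibroblast marker list. Acan stood at 17.1, 3.45 and 12.9 CPM in lung, against 28.7, 173 and 166 CPM in the cell line, where replicate 1 was the lowest (log2 fold change -3.46, edgeR adjusted p = 0.00759). Col3a1 and Col1a2, fibrillar collagens, had the highest levels among those that were higher in lung, at 972 ± 551 and 459.7 ± 247 CPM. Of the 7 Adamts-like genes, which lack the protease domain, 3 were higher in lung (Adamtsl1, Adamtsl2 and Adamtsl3) and none lower, beside 31.3% and 17.5% of all genes. Adamtsl1 entered the test through lung alone. Adamtsl2 stood at 35.9, 15.4 and 45.7 CPM in the lungs and 1.31, 0.748 and 0.737 CPM in the cell line. Adamtsl3 had 11.9 ± 6.02 against 0.452 ± 0.111 CPM, and the median of that list was 1.17.

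Of the 9 related Adam sheddases, 3 were higher in lung (Adam8, Adam28 and Adam33), Adam9 was lower and 5 did not pass, again near the 31.3% and 17.5% of all genes. Adam33 entered the test through lung alone. Adam9 stood at 172, 71.1 and 166 CPM in the lungs and 401, 509 and 515 CPM in the cell line, with no overlap (log2 fold change -1.80, edgeR adjusted p = 0.00491). Adam8, a leukocyte sheddase, stood at 28.4, 17.2 and 49.7 CPM in lung and 2.29, 4.95 and 6.48 CPM in cultured cells (log2 fold change 2.80). The medians were 0.54 for this list, 5.10 for the substrates and 0.38 for the inducers.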

How the data were processed

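RNA from 3 pooled lung samples and 3 cell line samples was sequenced with a stranded mRNA kit, per the labels' protocols. Those protocols also mention collagenase digestion and amplification, and the handling of the cell line samples is not described separately. Any effect of such handling on the levels was not tested. The authors deposited estimated counts per transcript, 1 column per sample. Salmon 1.4.0, DESeq2 1.32.0, FastQC 0.11.9 and the build GRCm39 are named in the submitters' processing notes. Neither the annotation release nor the use of strand in counting is given in the sources used here. Of 76776 transcripts, 76521 matched GENCODE M21 and were summed to genes. That annotation has another build (GRCm38) and gave only names, lengths, biotypes and shared exons. Unmatched transcripts held 0.107% to 0.416% of counts. Sums were rounded and tested with edgeR 4.0.16 in R 4.3.3 (quasi-likelihood, robust, TMM, filter by group), adjusted by Benjamini-Hochberg over 15212 genes. No set test was run. The values of 1 gene of the lists are not reported here.

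The members and lists were chosen with earlier results of these data known. Values by sample are given for every Timp gene, each Mmp and Adamts gene at 10 CPM or more on average in a group, each member called lower in lung, each whose cell line replicate 1 differed 4-fold, and each at 0 counts in 1 group and 5 CPM or more in the other. For the lists they are the 2 called members with the highest level and all called lower. Genes named beyond that rule, with values or not, were chosen for their role or after their values were seen. Alternatives were DESeq2 1.42.0 size factors and Wald test, library size alone, other filters, limma-voom 3.58.1, a replicate block, a 2-fold minimum, protein-coding transcripts and left-out samples. The test was tried on simulated data. Exons shared on the opposite strand (Mmp11 with Chchd10, Timp3 with Syn3, Mmp24 with BC029722, Mmp19 with Tmem198b, Mmp28, Mmp12, Mmp7, Timp4, Adamts4, Adamts7, Adamts8 and Adamts9 with others) could mix reads if strand was not used.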

Additional observations from a re-analysis of the deposited data

How the results depend on the processing

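The 23 members higher in lung were 22 to 27 when 1 sample was left out and 10 of 21 tested with a minimum of 10 counts in every sample, since that filter removes genes near 0 in the cell line. The 1 member lower in lung was 0 to 1 when 1 sample was left out (0 when this was lung replicate 2) and 4 when cell line replicate 1 was left out together with lung replicate 2. Counts under the other settings were within 1.5 times. Of 511 fold changes of single members under an alternative, 488 kept direction and side of the threshold, 8 lost the call, 9 gained it and 6 turned direction. Those were Timp1, at -0.18 without lung replicate 2, -0.02 lacking cell line replicate 1 and -0.50 lacking both (0.60 at most with samples left out), and Mmp24, at 0.035 lacking lung replicate 3, 0.056 lacking cell line replicate 3 and 0.013 under the stricter filter (-0.91 at least with samples left out), none called in the reported fit. The cause was not tested. With the replicate number as a block, 24 members were higher, Mmp28 being added (edgeR adjusted p = 0.0458), and 1 was lower. Samples sharing a number were not paired, since their deviations from the group means correlated at -0.04, 0.08 and -0.08. The fitted log2 fold change of Timp4, at 0 counts in the cell line, was 5.42 with limma-voom and 6.91 with DESeq2 against 7.59. Mmp19 was at 3.51 with limma-voom and 3.52 with the block against 2.88, and Adamts13 was called under the stricter filter (1.03). Depth limits the members under 1 CPM, for which 0 counts in a sample still allow up to 0.173 CPM.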
